A study of Mus musculus with 6 samples.

Results

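Tubulins and the proteins that bind microtubules were examined in RNA from postmitotic neurons of the mouse cortex at E14.5. The 45 genes were a listed set comprising 5 alpha-tubulins, 7 beta-tubulins, 1 gamma-tubulin, 10 lattice-binding proteins, 3 members of the doublecortin family, 4 stathmins, 7 plus-end proteins, 2 severing enzymes, 3 genes of the LIS1 complex and 3 minus-end proteins. All 45 symbols matched 1 gene each, of 34289 genes in the deposited tables. Mutant embryos were Rp58-/- and control embryos were Rp58+/+, with 3 libraries of each genotype. Rp58 is the earlier name of Zbtb18, which encodes a zinc finger protein that binds DNA and represses transcription, and the design sets its absence against its presence. No Cre driver, marker gene, strain or sorting step is named in the sources used here. Separate embryos, litters or pools are not stated for the libraries, so p-values measure only the spread between these samples, which may be technical.

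Microtubules are hollow polymers of alpha- and beta-tubulin dimers, and gamma-tubulin complexes template new ones. Postmitotic cortical neurons depend on them to migrate, to extend axons and dendrites and to carry cargo with dynein and kinesin motors. Several of the listed genes, among them Tuba1a, Tubb2b, Tubb3, Dcx and Pafah1b1, are known in humans as genes of cortical malformation. Stathmins bind free tubulin dimers, whereas the structural microtubule-associated proteins stabilise the polymer.

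Total estimated counts were 56472475, 54078417 and 53044306 in mutants 1, 2 and 3, and 34645505, 75892649 and 46457653 in controls 1, 2 and 3. The libraries were of 2 technical types that crossed the genotypes unevenly. In mutants 1 and 2 and control 1, transcripts of at least 1000 bases exceeded their effective length, the length available for a fragment to start, by 1 whole number of bases shared by these libraries (fixed-length type). In mutant 3 and controls 2 and 3 that difference was 133.7 to 139.2 bases and differed between libraries (estimated-length type). Mitochondrially encoded genes took 3.58% to 5.15% of all counts in the fixed-length type and 16.4% to 17.5% in the estimated-length type. The types appear in no label and may not be preparation batches. The tests of genotype below therefore carry a term for library type unless stated otherwise, and effects or levels within each type are given for the members that passed. The unit of level is CPM, the count of a gene relative to the TMM-normalised library size. The deleted gene, Zbtb18, had 46.7, 45.7 and 538 CPM in mutants 1, 2 and 3, against 1902, 1587 and 1697 CPM in the 3 controls. Mutants therefore held 2.43% of the control level in the fixed-length type and 32.8% in the estimated-length type. Mutant 3, the single mutant library of its type, kept far more Zbtb18 RNA than the other two. The deleted portion of the gene is not given in the labels, and whether mutant 3 held control material was not tested. All values of the estimated-length type rest on this 1 mutant library, and calls without it are given below.

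Marker genes were compared in the same fit. Of 12 excitatory neuron markers, 4 rose and 5 fell, and their summed level was 3022 to 4535 CPM in mutants and 4264 to 5581 CPM in controls. Of 13 markers of progenitors and cycling cells, 7 rose and 3 fell, with sums of 195 to 408 CPM in mutants and 131 to 297 CPM in controls. One of 6 tested interneuron markers rose (sums of 2.08 to 3.30 and 0.604 to 3.17 CPM), as did 3 of 5 tested glial markers (40.6 to 58.3 and 27.7 to 36.1 CPM) and 1 of 10 tested vascular, immune and blood markers (6.95 to 12.7 and 8.84 to 11 CPM), with the mutant sum first in each pair. The excitatory neuron list had the highest of these sums in both genotypes. Sox10, an oligodendrocyte lineage marker, was at 0 in all 6 libraries. The part of these other cells in the tubulin results was not tested. In bulk RNA, fewer cells of a type and less RNA per cell cannot be told apart.

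Loss of Rp58 was accompanied by lower RNA for several tubulins and by opposite changes in a pair of stathmins. Stmn2 was 2.59-fold lower and Stmn4 2.16-fold higher in mutants. Tuba1a, the most abundant gene of the set, was 1.48-fold lower, and Tuba4a, Tubb4b, Tubg1, Dcx, Map1a and Mapre2 also fell. Map6 was the other gene that rose. In edgeR's quasi-likelihood test with Benjamini-Hochberg adjustment over 16985 genes, 10 of the 44 tested members (22.7%) passed at an adjusted p under 0.05, 2 higher and 8 lower. The same test passed 14.9% of all genes, 7.92% higher and 7.01% lower. The count and its tilt toward lower levels depended on single libraries. Without mutant 3, 4 members passed, 2 higher and 2 lower, and without control 1, 2 passed, 1 higher and 1 lower. Without control 2, 4 passed (1 higher and 3 lower), and without control 3, 5 passed (1 higher and 4 lower). Calls over all genes dropped too, from 2537 (1346 higher and 1191 lower) to 1557 (994 and 563) without mutant 3. They were 1294 (785 and 509) without control 1, 1410 (844 and 566) without control 2 and 1429 (830 and 599) without control 3. Leaving out mutant 1 or mutant 2 gave 12 members each, 3 higher and 9 lower, with 2106 and 3034 genes. The median log2 fold change was -0.060 over the members and -0.00081 over all genes, so the middle of the set lay close to that of all genes.

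**Figure D1:**
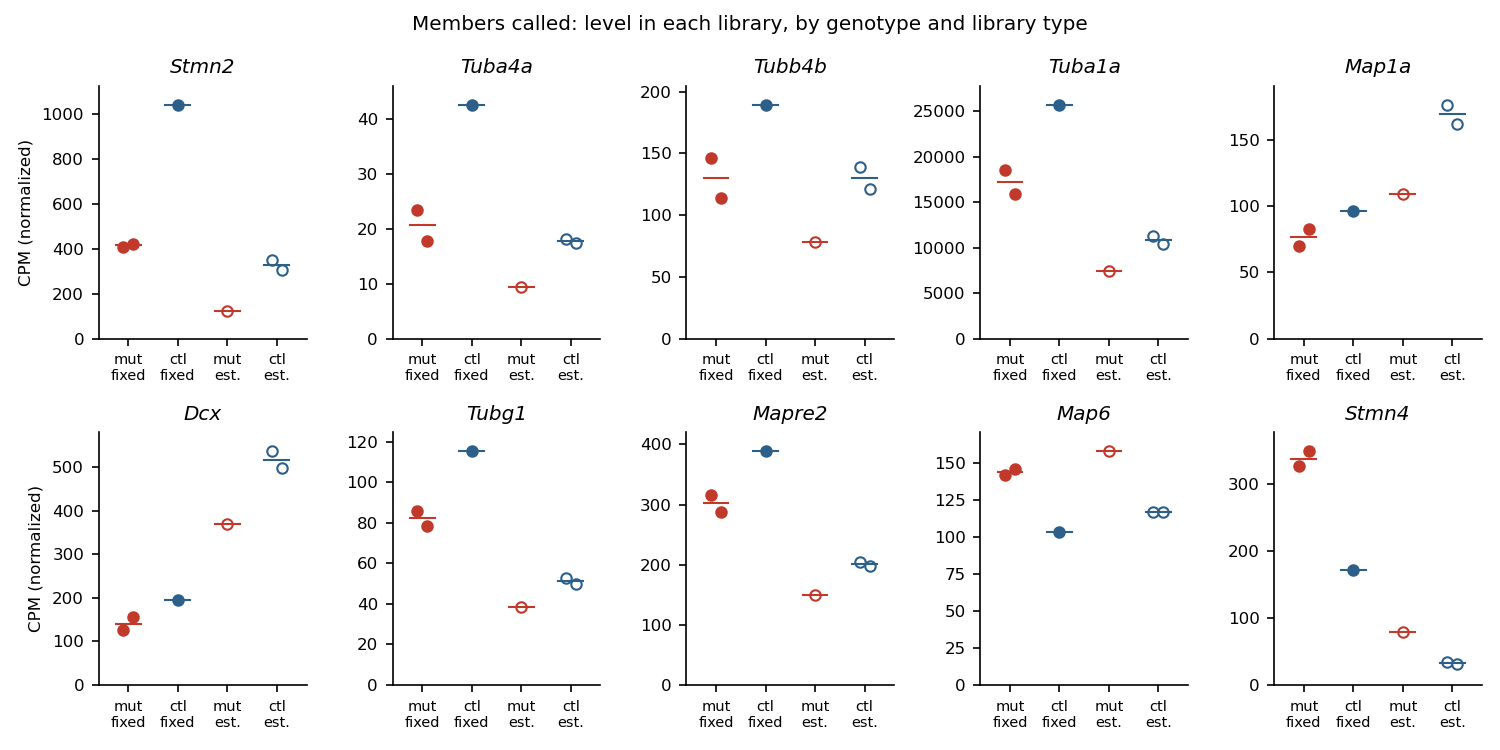
Level of the 10 members that passed the test, in CPM on linear axes that start at 0; each point is 1 library, bars are the mean of a genotype within a library type, red is mutant (mut) and blue is control (ctl), filled points are the fixed-length type and open points the estimated-length type. Within each type, mutants lay below controls for 8 genes and above them for Stmn4 and Map6, while the difference between types was often larger than that between genotypes.

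In every one of the 10, the fitted change had the same sign within both types, and each mutant library lay on the same side of the controls of its own type. That arrangement was met by 29 of 44 members (65.9%), 11 higher and 18 lower, and by 50.6% of all genes, 24.0% higher and 26.6% lower. A test with a term for type favours genes so arranged, so it gives the 10 calls no separate support. Without regard to type, all 3 mutants lay outside the range of all 3 controls for Map6, Tubb6 and Map2 alone, 6.82% of members against 15.4% of all genes. Without the term for type, none of the members passed and 2 had an unadjusted p under 0.05, against 2.36% and 9.67% of all genes. The spread between replicates of a gene, as the common biological coefficient of variation, was 0.186 with the term and 0.701 without it. The calls thus rest on comparison within library type.

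Alpha-tubulins were led by Tuba1a, which had the highest TPM (the authors' abundance scaled by effective length and total) of all protein-coding nuclear genes in each of the 6 libraries. Tuba1a is the main alpha-tubulin of young neurons. It had 18517, 15883 and 7412 CPM in mutants 1, 2 and 3, against 25732, 11317 and 10379 CPM in controls 1, 2 and 3. Each mutant was below the controls of its type, although the raw ranges of the genotypes overlapped because the fixed-length libraries were higher. It fell by 0.57 ± 0.09 on the log2 scale (SE; adjusted p = 0.00822, edgeR quasi-likelihood test), with changes of -0.58 in the fixed-length type and -0.55 in the estimated-length type. The call was lost without control 1 (adjusted p = 0.0740) or mutant 3 (0.0606), and either omission leaves the effect to 1 type.

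Tuba4a, an alpha-tubulin whose gene itself encodes no terminal tyrosine, had 23.4, 17.8 and 9.46 CPM in mutants, against 42.5, 18.1 and 17.3 CPM in controls. Mutants were at 48.4% of the control level in the fixed-length type and 53.5% in the estimated-length type. It fell by 0.97 ± 0.13 (adjusted p = 0.00352), and the call was lost without control 1 (0.0657). Tuba1b, a widely expressed alpha-tubulin, had 915, 783 and 245 CPM in mutants, against 1029, 267 and 238 CPM in controls. Its groups interleaved in the estimated-length type, with a change of -0.16 ± 0.11 (adjusted p = 0.389). Tuba1c, also without a call, was at 1.26 to 7.91 CPM in the 6 libraries. Tuba8 was not tested, having 10, 5 and 2 counts in mutants and 4, 1 and 4 in controls.

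Tuba1a and Tuba1b were 98.3% identical over their aligned coding sequences. Only 24.6% of the 31-base words of the Tuba1a transcript and 24.8% of those of Tuba1b were found in no other gene, so their separate counts are uncertain. Summed over Tuba1a, Tuba1b and Tuba1c, the level was 19440, 16671 and 7659 CPM in mutants, against 26767, 11586 and 10618 CPM in controls. The sum changed by -0.57 and -0.54 on the log2 scale in the fixed-length and estimated-length types, close to Tuba1a alone. Tuba4a had 94.8% of its words to itself.

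Of 7 beta-tubulins, 5 had a negative fitted change and 2 a positive one, and 1 passed. Tubb4b, a broadly expressed beta-tubulin, had 147, 114 and 78.2 CPM in mutants, against 189, 139 and 121 CPM in controls. Mutant 1 was above controls 2 and 3, but each mutant was below the controls of its type. It fell by 0.64 ± 0.13 (adjusted p = 0.0203), with changes of -0.54 in the fixed-length type and -0.74 in the estimated-length type, and the call was lost without control 1 (0.102), control 2 (0.0714), control 3 (0.0583) or mutant 3 (0.150).

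The abundant beta-tubulins Tubb2b, Tubb5 and Tubb3 lay short of the threshold. Tubb2b had 6674, 6048 and 2313 CPM in mutants, against 7647, 3021 and 2893 CPM in controls (log2 change -0.31 ± 0.08, adjusted p = 0.0534). Tubb5, which cycling and young neural cells share, had 6043, 5448 and 2936 CPM in mutants, against 6652, 3959 and 3587 CPM in controls (-0.29 ± 0.09, adjusted p = 0.0910). Tubb3, the neuronal isotype long used as a marker of new neurons, had 3549, 3065 and 1626 CPM in mutants, against 3767, 2067 and 1903 CPM in controls (-0.24 ± 0.10, adjusted p = 0.159). In all 3 genes every mutant was below the controls of its type, by less than in Tuba1a. DESeq2's Wald test with the same term, the less strict of the tools run, passed these 3 genes as lower, among 17 members (3 higher and 14 lower) and 23.7% of all genes (10.3% higher and 13.4% lower). With size factors in place of TMM, edgeR's test with the term also passed Tubb2b (adjusted p = 0.0289) and Tubb5 (0.0493) as lower. Tubb3 did not pass there (0.0957). On protein-coding genes alone Tubb2b passed (0.0267) and Tubb5 did not (0.0501). Without control 1, Tubb2b was at 0.182 and Tubb5 at 0.210. The remaining beta-tubulins, Tubb2a, Tubb4a and Tubb6, had changes of -0.32 to 0.50 and adjusted p of 0.126 to 0.367.

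Tubb2a and Tubb2b are near-identical neighbours, 96.5% identical over their coding sequences, and are shown because their counts too had to be divided. The last 60 coding bases before the stop codon, which encode the acidic tail that projects from the microtubule, are from GENCODE vM21 transcripts, 5′ to 3′. Capitals mark bases where Tubb2a differs from Tubb2b, counted back from the stop without gaps.
Tubb2b: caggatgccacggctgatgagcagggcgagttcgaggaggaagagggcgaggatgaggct
Tubb2a: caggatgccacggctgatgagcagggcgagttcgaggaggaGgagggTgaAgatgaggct

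The printed stretches differed at 3 of 60 bases, none of which changes the encoded amino acid, so the encoded tails are the same. Of the Tubb2a words 48.9% were its own, and of the Tubb2b words 62.5%. Tubb2a, named after its values were seen, changed by 0.12 in the fixed-length type and -0.77 in the estimated-length type. The sum of both genes changed by -0.23 and -0.42 in the fixed-length and estimated-length types, the same sign in each. The ratio of summed alpha- to summed beta-tubulin TPM was 1.42, 1.37 and 1.33 in mutants, against 1.77, 1.501 and 1.48 in controls. Every mutant ratio was below every control ratio. Tuba1a made up 45.1%, 42.1% and 41.2% of the members' summed TPM in mutants, against 50.3%, 45.7% and 45.3% in controls. Of alpha-tubulin TPM, Tuba1a took 95.3% to 97.5% in the 6 libraries. The ratio and this share thus largely restate the change of Tuba1a and were not tested on their own.

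Tubg1, the gamma-tubulin of the nucleating ring complex, had 85.9, 78.5 and 38.7 CPM in mutants, against 115, 52.9 and 50.1 CPM in controls. All mutants were below the controls of their type. It fell by 0.45 ± 0.08 (adjusted p = 0.0105), with changes of -0.49 and -0.41 in the fixed-length and estimated-length types, and the call was lost without control 1 (0.150), control 2 (0.0631) or mutant 3 (0.0670). Of its words 75.8% were its own, and Tubg2 was the gene that shared the most of them.

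**Figure D2:**
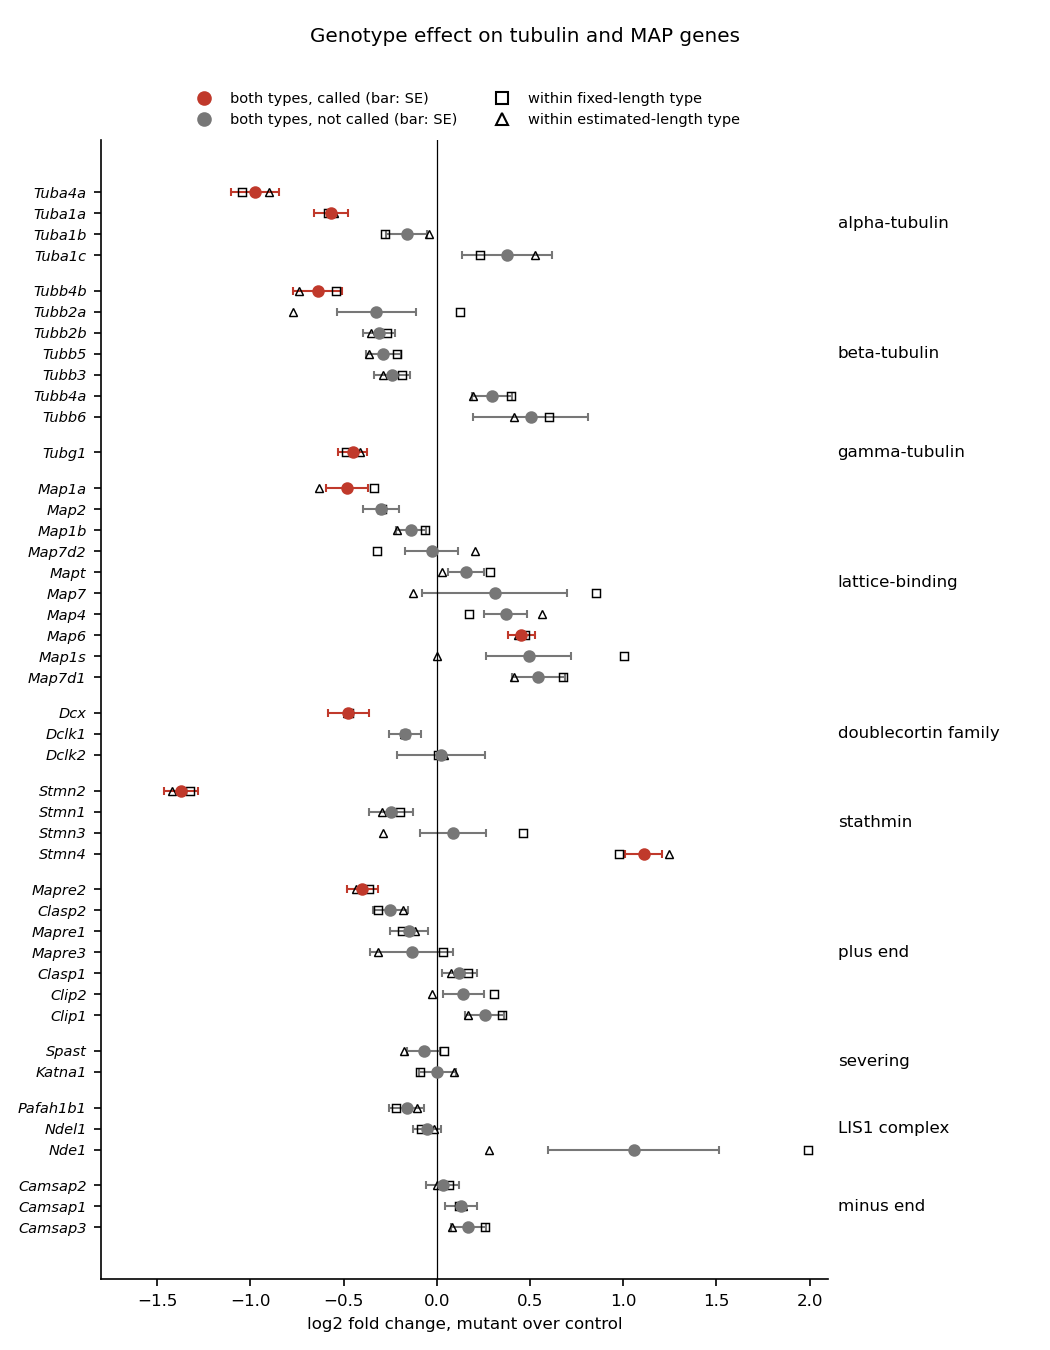
Genotype effect on each of the 44 tested members, as log2 fold change of mutant over control with its standard error, by role; the smaller marks give the effect within each library type. Stmn2 at -1.37 and Stmn4 at 1.11 stand furthest out among the members that passed, and most members lie within 0.5 of 0.

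Lattice-binding proteins moved in both directions, with 1 of 10 higher and 1 lower. Map6, which protects microtubules against cold-induced disassembly, had 142, 146 and 158 CPM in mutants, against 103, 117 and 117 CPM in controls. The genotypes did not overlap, and Map6 was the one member that passed the test of which this was true. It rose by 0.45 ± 0.07 (adjusted p = 0.00744), by 0.47 in the fixed-length type and 0.43 in the estimated-length type. The call was lost by small margins without control 1 (0.0827), control 2 (0.0557), control 3 (0.0529) or mutant 3 (0.0662).

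Map1a, a large structural protein of dendrites that increases as neurons mature, had 70.1, 82.5 and 109 CPM in mutants, against 96.3, 176 and 162 CPM in controls. Mutant 3 was above control 1 of the other type, but each mutant was below its own type's controls. It fell by 0.48 ± 0.11 (adjusted p = 0.0327), with changes of -0.34 in the fixed-length type and -0.63 in the estimated-length type, and the call held in 1 of the 6 fits that left out a library, the one without mutant 2 (0.00534). It was lost without control 1 (0.0837), control 2 (0.113), control 3 (0.0986), mutant 1 (0.0776) or mutant 3 (0.233). Map1b, the earlier-acting relative of Map1a, was at -0.14 (adjusted p = 0.316).

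The other lattice-binding genes did not pass. Map2, a marker of dendrites, had 1043 to 1358 CPM in mutants and 1396 to 1711 CPM in controls, without overlap (-0.30 ± 0.10, adjusted p = 0.0908). Map7d1 came nearest to a call (0.55 ± 0.14, adjusted p = 0.0512) and passed in DESeq2 as higher, where Map2 and Map1b passed as lower. Map4 was at 0.37 (adjusted p = 0.0868). Mapt, which encodes tau, was at 0.16 (0.330), and Map1s, Map7 and Map7d2 had adjusted p of 0.204 to 0.928. These genes were named after their values were seen.

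Among the doublecortin genes, Dcx was the one that fell. Dcx encodes a protein that binds between protofilaments and is required in migrating neurons. It had 126, 156 and 370 CPM in mutants, against 196, 537 and 497 CPM in controls. Each mutant was below its own type's controls, while mutant 3 was above control 1, because the estimated-length libraries held more Dcx. It fell by 0.48 ± 0.11 (adjusted p = 0.0321), to 72.2% of the control level in the fixed-length type and 71.7% in the estimated-length type. The call was lost without control 1 (0.224), control 2 (0.123), control 3 (0.0901) or mutant 3 (0.157). Its kinase-bearing relatives Dclk1 and Dclk2 changed by -0.17 (adjusted p = 0.239) and 0.024 (0.964).

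The stathmins held both the largest fall and the largest rise among the members that passed. Stmn2, a neuronal stathmin of growing axons, had 409, 424 and 123 CPM in mutants, against 1043, 348 and 308 CPM in controls. Mutants were at 39.9% of the control level in the fixed-length type and 37.4% in the estimated-length type. It fell by 1.37 ± 0.09 (adjusted p = 0.000217), and passed in each fit that left out a library (adjusted p of 0.000423 to 0.00478).

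Stmn4, a membrane-anchored neuronal stathmin, had 327, 349 and 78.5 CPM in mutants, against 172, 34.8 and 31.3 CPM in controls. Mutant 3 was below control 1 of the other type and above both controls of its own. Mutants held 197% and 237% of the control level in the fixed-length and estimated-length types. It rose by 1.11 ± 0.10 (adjusted p = 0.00069), and passed in each fit that left out a library (0.00166 to 0.0132).

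The ratio of Stmn2 to Stmn4 in TPM, formed within each library, was 0.639, 0.618 and 0.715 in mutants, against 2.98, 5.003 and 5.11 in controls. In TPM, which allows for transcript length, Stmn4 thus exceeded Stmn2 in all 3 mutants and Stmn2 exceeded Stmn4 in all 3 controls. In CPM, which does not, Stmn2 was the higher of the pair in all 6 libraries. The Stmn4 TPM sums 9 transcript models, some of them short and not protein coding, and its lead in mutants needs the minor ones. The leading Stmn4 model, of 1303 bases, had 295, 281 and 44.0 CPM in mutants. The Stmn2 model, of 1904 bases, had 467, 462 and 113 CPM in mutants. Per base, the leading Stmn4 model did not exceed the Stmn2 model in any mutant. Of the summed stathmin TPM, Stmn2 took 6.10%, 5.34% and 5.61% in mutants, against 12.6%, 12.2% and 12.0% in controls. Stmn4 took 9.54%, 8.63% and 7.84% in mutants, against 4.21%, 2.44% and 2.35% in controls. These shares follow from the 2 changes above and were not tested on their own. Sharing of reads between the pair was small, since 99.4% of the Stmn2 words and all of the Stmn4 words were their own.

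Stmn1, the most abundant and most widely expressed stathmin, had 2369, 2982 and 789 CPM in mutants, against 3070, 1015 and 919 CPM in controls. Each mutant was below the controls of its type, by less than the threshold required (-0.25 ± 0.12, adjusted p = 0.215). Of the Stmn1 words 57.4% were its own, and Gm11223 shared the most of them. The Stmn1 count, and with it the summed stathmin TPM, is therefore less certain. Stmn3 changed by 0.46 in the fixed-length type and -0.29 in the estimated-length type, with an adjusted p of 0.794 over both.

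**Figure D3:**
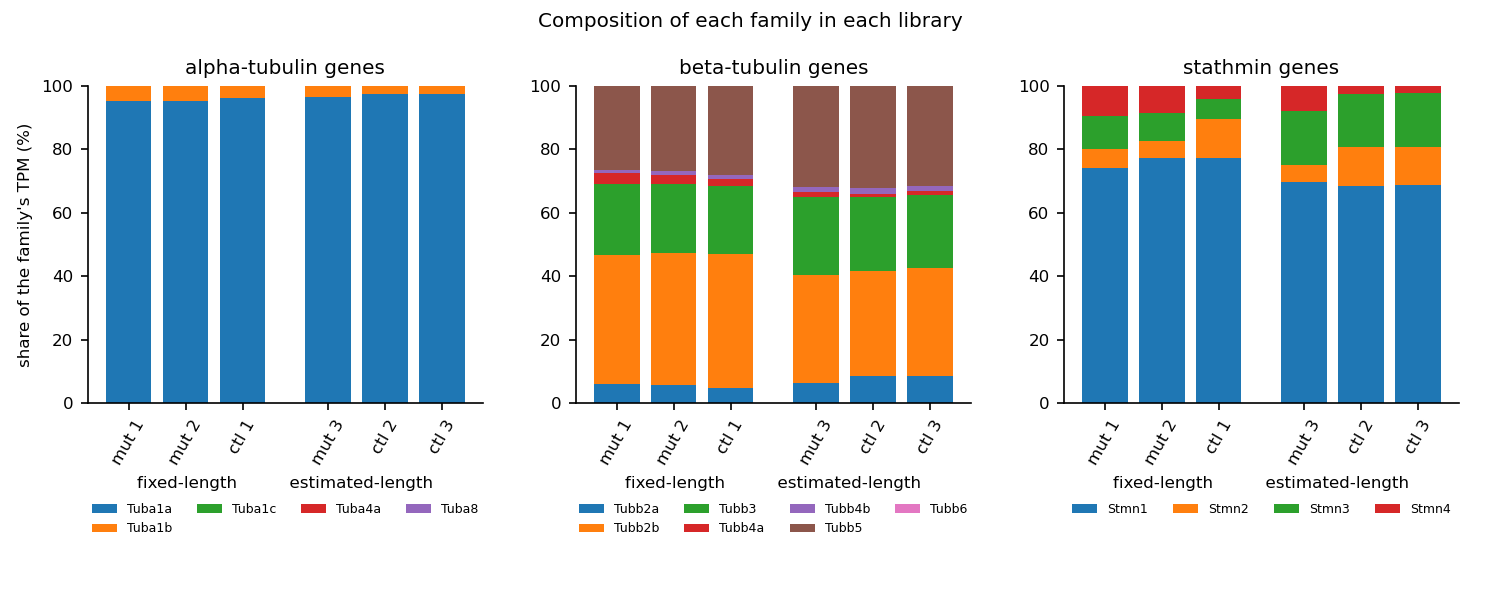
Composition of the alpha-tubulin, beta-tubulin and stathmin families in each library, as percent of the family's summed TPM, with mutants (mut) left of controls (ctl) within each library type. The share of Stmn2 was 5.34% to 6.10% in mutants and 12.0% to 12.6% in controls, and Tuba1a was over 95% of alpha-tubulin in all 6.

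Of the plus-end proteins, 1 of 7 fell. Mapre2, which encodes an end-binding protein that tracks growing tips, had 316, 288 and 149 CPM in mutants, against 389, 205 and 197 CPM in controls. All mutants were below the controls of their type. It fell by 0.40 ± 0.09 (adjusted p = 0.0248), with changes of -0.36 and -0.43 in the fixed-length and estimated-length types, and the call was lost without control 1 (0.160), control 2 (0.118), control 3 (0.0955) or mutant 3 (0.155). Its relatives Mapre1 and Mapre3 were at -0.15 (adjusted p = 0.379) and -0.14 (0.743). Clip1 and Clip2, linker proteins at growing ends, and Clasp1 and Clasp2, which stabilise them, were at -0.25 to 0.26 with adjusted p of 0.129 to 0.448, and Clasp2 alone of these passed in DESeq2, as lower.

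None of the severing, LIS1-complex or minus-end genes passed in the fit over both types, with no member of these groups at an unadjusted p under 0.05. DESeq2 also passed none of them. Katna1 (katanin) and Spast (spastin), which cut microtubules, were at 0.0023 and -0.070. Pafah1b1, which encodes the dynein regulator LIS1, had 335 to 375 CPM in mutants and 370 to 413 CPM in controls (-0.16 ± 0.09, adjusted p = 0.300). Its partner Ndel1 was at -0.051. Nde1, a partner best known in neural progenitors, had 5.54, 3.07 and 6.46 CPM in mutants, against 1.05, 5.34 and 5.28 CPM in controls. That was a change of 1.99 in the fixed-length type and 0.28 in the estimated-length type (1.06 ± 0.46 over both, adjusted p = 0.183). Camsap1, Camsap2 and Camsap3, which hold minus ends, had changes of 0.032 to 0.17 and adjusted p of 0.281 to 0.853. These genes were named after their values were seen.

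The effect of genotype was also tested for a difference between the library types. No member passed (smallest adjusted p = 0.291), 4 had an unadjusted p under 0.05, and 0.153% of all genes passed. Within the fixed-length type alone 6 members passed, of which Stmn4, Map1s and Nde1 were higher and Stmn2, Tuba4a and Tuba1a lower, against 9.46% of all genes (6.05% higher and 3.41% lower). Within the estimated-length type 4 passed, with Stmn4 higher and Stmn2, Tuba4a and Tubb2a lower, against 7.92% of all genes (4.6% higher and 3.32% lower). Stmn2, Stmn4 and Tuba4a were thus the members that passed in both types. Each type has 1 genotype with a single library, whose spread was taken from the other libraries.

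**Figure D4:**
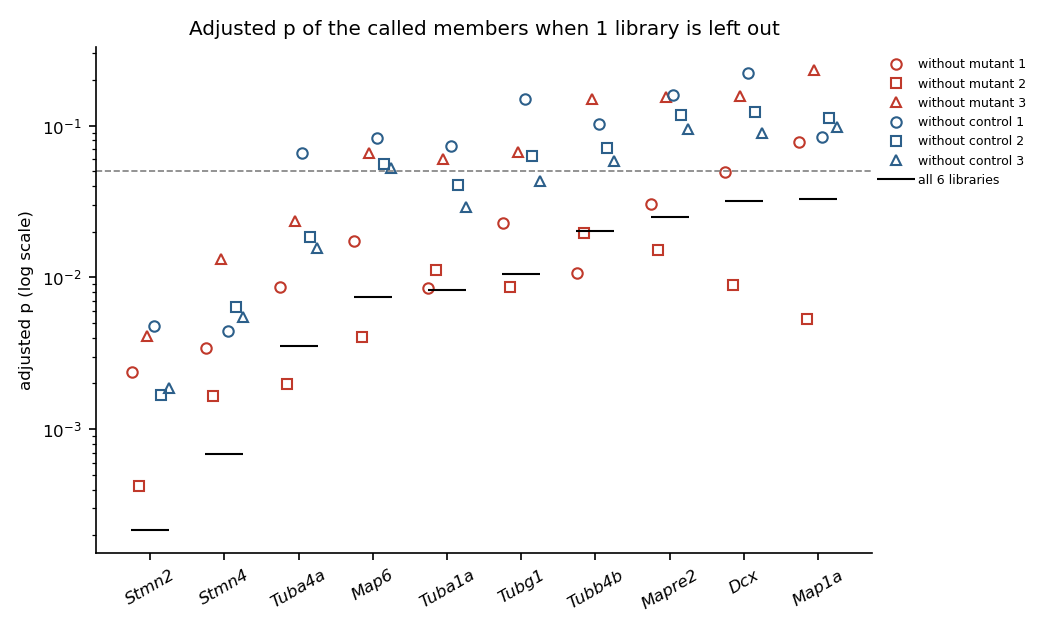
Adjusted p of the 10 members that passed (edgeR quasi-likelihood test with the term for library type), on a log axis, when each of the 6 libraries was left out in turn; black bars give the value with all 6, and the dashed line marks 0.05. Stmn2 and Stmn4 stayed below it throughout, and the fit without control 1 left 2 members below it.

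Library type shifted more members than genotype did. Between types, 34 of 44 members passed (77.3%), 23 lower and 11 higher in the estimated-length libraries, against 70.2% of all genes (32.1% lower and 38.2% higher). Among the members this effect went with transcript length. Of 19 members whose leading transcript model was under 2500 bases, 15 passed as lower in the estimated-length type, and of 13 over 5000 bases, 7 passed as higher. Others went against length. Mapt (-1.02), Mapre1 (-0.83), Map4 (-0.38) and Dclk1 (-0.245), all over 5000 bases, passed as lower, and Nde1 (1.36), under 2500 bases, as higher. The rank correlation across the 44 members between that length and the type effect was 0.63, a description over genes that share the same 6 libraries. The corresponding value for the genotype effect with the term was 0.064. Map1b and Dcx, with long transcripts, were 1.56 and 1.40 higher on the log2 scale in the estimated-length type, and Stmn4, with a short one, was 2.24 lower.

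**Figure D5:**
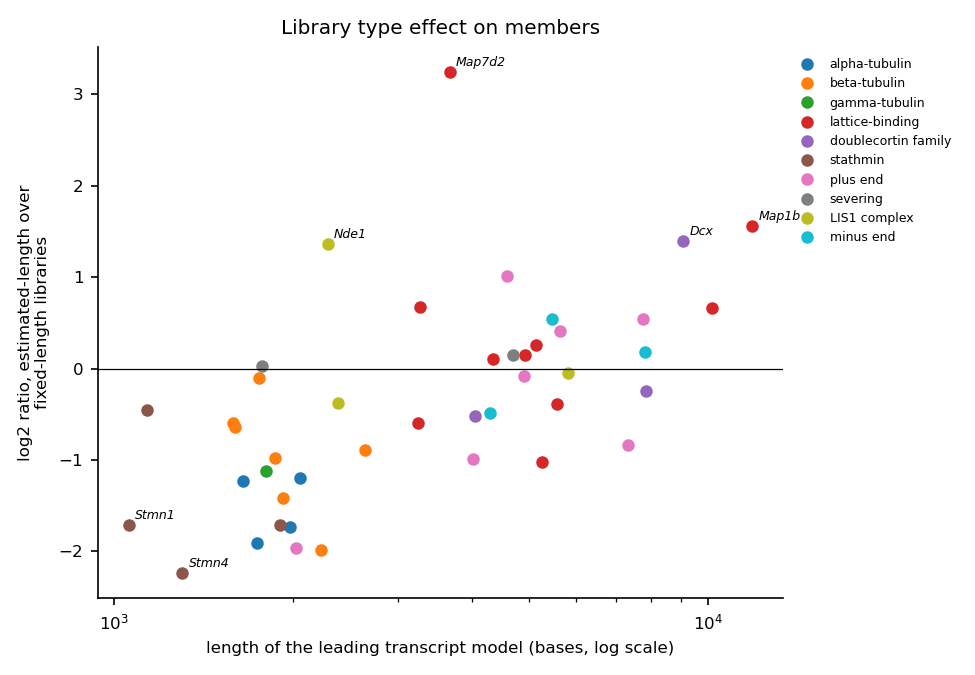
Library type effect on each of the 44 tested members (log2 ratio of estimated-length over fixed-length libraries) against the length in bases of its leading transcript model (log axis), coloured by role. Short tubulin and stathmin transcripts lie mostly below 0. Some long ones, such as Map1b and Dcx, lie above it, and others, such as Mapt and Mapre1, below.

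Estimated counts were also tested for single transcript models. The members had 184 models in the tables, of which 156 were tested and 2 passed, the Stmn2 model lower and the leading Stmn4 model higher, against 1.74% of all models tested. The single Stmn2 model in the tables had 467, 462 and 113 CPM in mutants, against 1116, 314 and 280 CPM in controls, and fell by 1.33 ± 0.09 (adjusted p = 0.00833). The leading Stmn4 model carried 60.9% to 78.8% of the Stmn4 count in mutants and 67.5% to 79.3% in controls. It had 295, 281 and 44.0 CPM in mutants, against 146, 21.2 and 21.7 CPM in controls, and rose by 1.01 ± 0.08 (adjusted p = 0.00892). With a single model, Stmn2 could only repeat its gene result here. For Stmn4, which has several, the rise was seen in its main model, in both library types. Another 12 models were under 1 CPM in every fixed-length library and at 5 CPM or more in every estimated-length library, and 4 of those 12 are not protein coding.

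Other genes of microtubule biology were read from the same fit in 9 lists of 151 genes. Of 144 tested, 5 rose and 13 fell (12.5%, against 14.9% of all genes), and without the term 1 passed. Jakmip1 and Dync1i1 had the largest falls among these 18. Of 21 dynein and dynactin genes, 1 rose and 3 fell. Dync1i1, a dynein intermediate chain of neurons, had 24.9, 19.4 and 10 CPM in mutants, against 95.7, 61.8 and 60.5 CPM in controls, and fell by 2.35 ± 0.16 (adjusted p = 0.000206). Its genotypes did not overlap. Bicd1, a dynein adaptor, rose by 0.76, and Dynlt3, a light chain, fell by 0.68.

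Of 18 tested genes for further microtubule-associated proteins, 2 rose and 2 fell. Jakmip1, which encodes a protein that binds microtubules and GABA-B receptors, had 8.70, 9.30 and 11.3 CPM in mutants, against 109, 90.4 and 108 CPM in controls. It fell by 3.36 ± 0.14 (adjusted p = 4.33e-05) and was the one related gene that passed without the term (0.00302). Mtus2, named after its values were seen, had the largest rise among the 18 related genes that passed. It had 29.8, 33.65 and 21.9 CPM in mutants, against 3.02, 11.2 and 10.9 CPM in controls, without overlap, and rose by 2.08 ± 0.52 (adjusted p = 0.0433), by 3.38 in the fixed-length type and 0.98 in the estimated-length type. The collapsin response mediators Dpysl4 and Dpysl5 moved oppositely, by -0.58 and 0.56. Of 17 kinases and phosphatases that act on these proteins, Ppp2r2b, Mapk10 and Cdk5 fell, by 0.89, 0.79 and 0.37 on the log2 scale, and none rose.

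Of 22 tubulin folding genes, Tbcd and the prefoldin subunit Pfdn4 fell, by 0.32 and 0.52 on the log2 scale. Of 19 genes that modify tubulin, Svbp, a partner of the enzymes that remove the terminal tyrosine of alpha-tubulin, fell by 0.82. Of 20 genes of the gamma-tubulin ring and augmin complexes, Nedd1 rose by 0.66 and Haus2 fell by 0.46. Tubd1, which encodes delta-tubulin, fell by 1.5 and was the 1 called of 3 tested further tubulins. Slain2 was the 1 higher of 18 further plus-end and nucleation genes, by 0.33, and none of 6 other severing genes passed.

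RP58 is known to bind an E-box-like motif that contains ACATCTG. RefSeq promoters of the GRCm38.p6 build, 250 bases before to 50 after a start, were found for 33 of the 45 members (41 promoters). ACATCTG, searched on both strands, was in 0 of these 41 promoters and in 4.43% of all promoters. Its core CATCTG was in 12.2% of member promoters and 17.2% of all. The general E-box CANNTG, which contains both of these by design, was in 73.2% and 72.3%. The promoters of the alpha-tubulins that fell are printed 5′ to 3′ on the minus strand, because these genes moved together, with the CANNTG match in capitals. A match is a description of letters, and no binding was measured.
Tuba1a, chr15:98953452-98953751: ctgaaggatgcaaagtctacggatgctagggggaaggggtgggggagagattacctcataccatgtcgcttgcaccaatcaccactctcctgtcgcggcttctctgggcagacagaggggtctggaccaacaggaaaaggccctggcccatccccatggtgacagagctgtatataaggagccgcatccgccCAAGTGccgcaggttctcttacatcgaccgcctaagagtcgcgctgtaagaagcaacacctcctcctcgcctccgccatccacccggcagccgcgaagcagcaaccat
Tuba4a, chr1:75219245-75219544: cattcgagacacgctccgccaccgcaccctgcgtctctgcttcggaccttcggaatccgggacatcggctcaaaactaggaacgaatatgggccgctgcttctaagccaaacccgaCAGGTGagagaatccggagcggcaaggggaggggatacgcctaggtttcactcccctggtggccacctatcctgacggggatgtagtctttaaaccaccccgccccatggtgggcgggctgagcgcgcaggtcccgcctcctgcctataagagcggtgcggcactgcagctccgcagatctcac
Each of these promoters held 1 CANNTG match, CAAGTG in Tuba1a and CAGGTG in Tuba4a.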

How the data were processed

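Cortical neuron libraries were made with a stranded total RNA kit and read on 1 sequencer model, per the labels. FastQC, kallisto and mm9 are named, without versions, in the submitters' processing notes. Estimated counts of reads for each of 97251 transcripts were made with kallisto and deposited by the authors with no normalization added. TPM values were deposited by the authors, who scaled those counts by effective length and total. The deposited length and effective length, in bases, gave the library type and no expression value.

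Transcripts were joined to GENCODE vM21 genes, and 84637 (87.0%) matched. The 12614 others held 6.85% to 8.58% of counts and stayed out of the tests. As builds differ, no coordinates come from the tables. Counts were summed to genes, rounded and tested with edgeR 4.0.16 in R 4.3.3 (quasi-likelihood, TMM, filterByExpr, prior count 2) with terms for library type and genotype, and Benjamini-Hochberg adjustment over all tested genes. The SE of a log2 change was its size over the square root of F. The steps were tested on simulated data. DESeq2 1.42.0 and other settings were alternatives. TPM of genes was compared within libraries, since its scale differed between types. Exceptions were the fit on length-scaled TPM and the choice of members by mean control TPM, to which control 1 gave the most. The members and lists were chosen with earlier results of these data known. A rule named Zbtb18, up to 16 called members, the 6 with the highest control TPM and up to 3 called genes of each related list. No library pair agreed within sampling noise (chi-square per degree of freedom of at least 18.5).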

Additional observations from a re-analysis of the deposited data

How the results depend on the processing

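Calls depended most on the term for library type. Without it 0 members passed (2 at an unadjusted p under 0.05; DESeq2 with the term passed 17) in place of 10, 400 genes in place of 2537, 0 member transcripts in place of 2 and 1 related gene in place of 18, and the members' median log2 fold change was 0.047 in place of -0.060. DESeq2 passed 4029 genes. Within the fixed-length type 1606 genes and 6 members passed, and within the estimated-length type 1345 and 4. Without a filter on low counts 4 member transcripts passed. Leaving out 1 library gave 1294 to 3034 genes and 2 to 12 members, the lowest without control 1, and a median of -0.091 to -0.028. Under size factors in place of TMM, the protein-coding genes alone, no filter and length-scaled TPM, the member count was within 1.5 times of 10. No called member changed direction under any of these settings.

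Uncalled members changed sign as follows, and the cause was not tested. Without the term the log2 change was 0.34 for Tuba1b, 0.15 for Tubb2b, 0.091 for Tubb3, 0.023 for Tubb5, 0.30 for Stmn1, 0.11 for Mapre1, 0.53 for Mapre3, 0.071 for Ndel1, -0.097 for Clip1, -0.065 for Clasp1, -0.0072 for Katna1, -0.045 for Camsap1 and -0.031 for Camsap2. Katna1 was at -0.026 in DESeq2, -0.028 with size factors, -0.0020 without a filter and -0.00092 on protein-coding genes, and Dclk2 at -0.0038 in DESeq2 and -0.0053 with size factors. In the estimated-length type Stmn3 was at -0.29, Map7 at -0.13, Clip2 at -0.024 and Map7d2 at 0.21, and in the fixed-length type Tubb2a at 0.12, Mapre3 at 0.035, Katna1 at -0.089 and Spast at 0.036. Leaving out 1 library gave ranges of -0.75 to 0.12 for Tubb2a, -0.11 to 0.85 for Map7, -0.32 to 0.23 for Map7d2, -0.15 to 0.25 for Dclk2, -0.27 to 0.46 for Stmn3, -0.30 to 0.051 for Mapre3, -0.0032 to 0.31 for Clip2, -0.089 to 0.11 for Katna1, -0.16 to 0.037 for Spast, -0.086 to 0.0060 for Ndel1 and -0.0059 to 0.081 for Camsap2. No paired analysis was possible because the library numbers used here only follow the order of deposition, and no number in the titles is common to both genotypes. Tuba8, with 17 counts in mutants and 9 in controls, was too low to test.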
